A study of Mus musculus with 32 samples.

Results

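The CHD genes encode ATP-dependent chromatin remodellers, and the 8 members described here are Chd1, Chd2, Chd3, Chd4, Chd6, Chd7, Chd8 and Chd9. They are 8 of 49993 mouse gene bodies in the RefSeq table of GRCm38.p6, the assembly also called mm10. A peak of N6-methyladenosine (m6A), a methyl mark on RNA, was assigned to a member when its summit lay inside the body of that gene. This gave 1148 peaks of 496760 in the 16 peak lists, and peaks that overlapped on the same strand merged into 142 regions of 80081. The members were named for their family and not for a value in these lists.

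The cells were mouse embryonic stem cells of the C57BL/6 strain, grown with LIF at 1000 U/ml, CHIR99021 at 3 µM and PD0325901 at 1 µM, which applies to every group. The labels call 1 genotype Control and the other CKO, here the knockout, of Mettl3 or of Mettl14, and they state neither the allele, the way of deletion nor whether a line is a clone. RNA was taken as polyadenylated RNA (mRNA) or as chromatin-associated RNA freed of ribosomal RNA (caRNA). Each of the 8 groups of RNA type, line and genotype had 2 immunoprecipitation libraries with a peak list each, and 16 input samples were not used here.

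All CHD proteins carry paired chromodomains, which bind modified histone tails, and a Snf2-type ATPase that slides, ejects or exchanges nucleosomes. Chd1 and Chd2 form a subfamily, Chd3 and Chd4 are alternative motors of the NuRD histone deacetylase complex, and Chd6 to Chd9 form the third subfamily. METTL3 is the catalytic subunit of the methyltransferase that places m6A on nascent transcripts, and METTL14 is its partner. The mark is known to collect in long internal exons and near stop codons, in sequences with the core GGAC.

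After spike-in peaks were set aside, the lists held 16537 to 23380 peaks in mRNA and 37955 to 45241 in caRNA, and the read depth behind them is unknown. The shortest mRNA lists were those of the Mettl14 controls, at 16537 and 17738 peaks, against 22165 to 23380 in the other mRNA lists. Of the regions found in either of 2 replicate libraries, 74.8% to 81.7% were shared in mRNA and 69.5% to 77.4% in caRNA, against 56.5% to 65.5% and 54.4% to 61.9% between a control and a knockout library. The labels do not say that replicates were separate cultures, so p-values rest on a spread that may be technical. All 10 embryonic stem cell markers had peaks, Dppa5a and Utf1 in caRNA alone. All 8 feeder fibroblast markers had a peak in at least 2 lists, Mmp2 and Vim in caRNA alone. The summed peaks of the fibroblast list were higher in knockouts without overlap in each comparison, at 10 to 12 against 4 to 8 in mRNA of the Mettl3 line and 4 in each library against 1 in mRNA of the Mettl14 line. In caRNA they were 11 to 12 against 5 in the Mettl3 line and 8 to 9 against 6 to 7 in the Mettl14 line. The stem cell list summed to 21 to 23 in knockouts and 30 to 32 in controls in mRNA of the Mettl3 line, and its ranges overlapped in the other 3 comparisons. A peak shows methylated RNA and not its level, so these sums do not measure cell content. Knockout lists were longer than control lists in mRNA of the Mettl14 line and caRNA of the Mettl3 line, and shorter in caRNA of the Mettl14 line. The share of all genes that were higher in knockouts in this way is not given here. The part of either list in the results on CHD genes was not tested.

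All 8 members had a peak in each of the 16 lists, 48 to 62 in all per mRNA library and 70 to 100 per caRNA library. In mRNA of the Mettl14 line they had 48 to 51 peaks in controls and 53 to 55 in knockouts. Per 10000 peaks of the list the order turned, at 28.8 to 29.0 in those controls and 22.7 to 24.3 in those knockouts. In these bulk samples, fewer cells with a marked transcript and less marked RNA per cell cannot be told apart. The number of regions ran from 8 in Chd3 to 30 in Chd9, and the median protein-coding gene with a peak had 4. Chd9 had more regions than 99.4% of those 13564 genes, and Chd3 more than 80.7%. Per length the order differed: Chd4 had 5.49 regions per 10 kb and Chd3 3.05, whereas Chd7 had 1.12 and Chd6 1.17. Of the 142 regions, 26 were found in all 16 lists (18.3%, against 8.39% of all regions of the series), 58 in caRNA alone (40.8% against 56.6%) and 11 in mRNA alone (7.75% against 7.12%). The 26 regions lay 8 in Chd9, 5 each in Chd6 and Chd7, 4 in Chd8, 2 in Chd1 and 1 each in Chd2 and Chd3. Chd4, with 19 regions, had none.

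**Figure D1:**
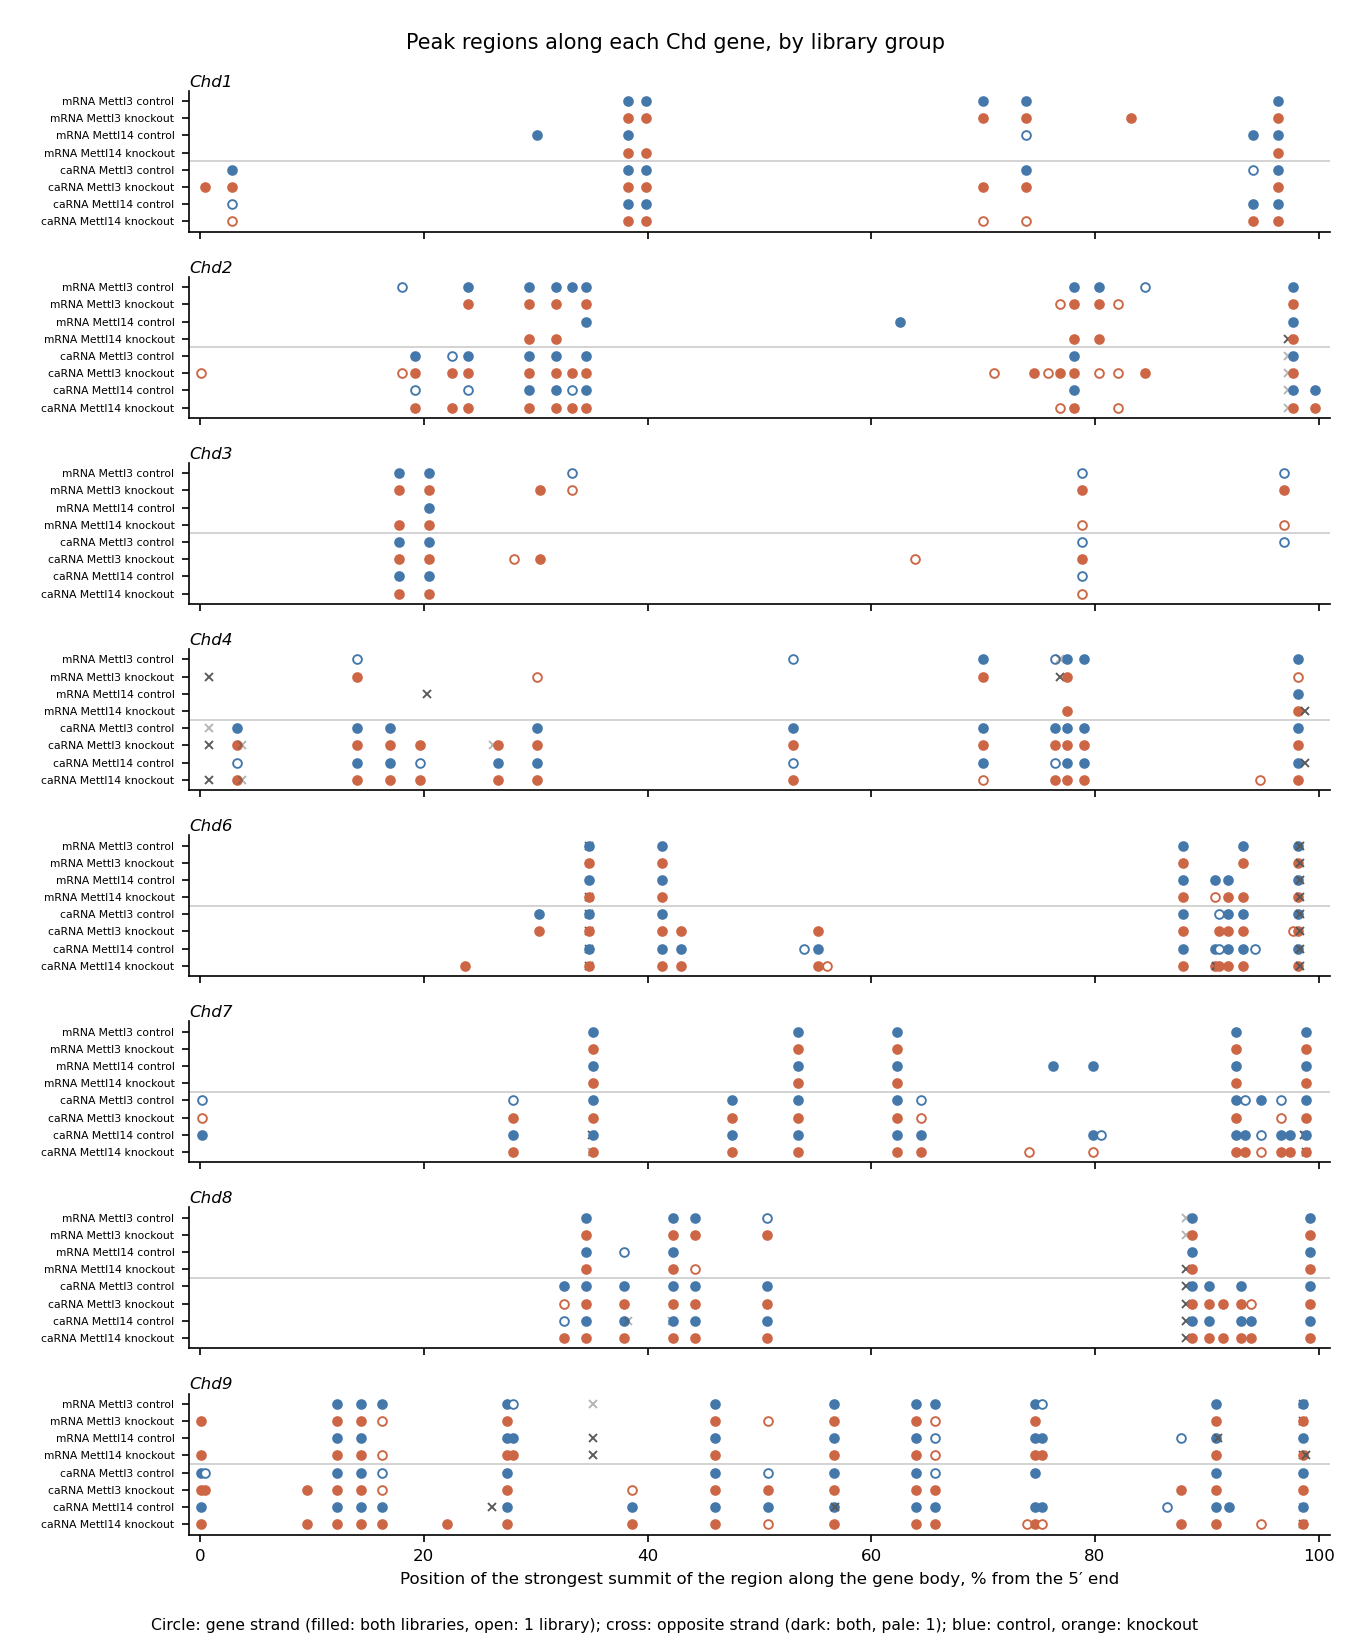
Peak regions along the body of each CHD gene, in percent from the 5′ end, for the 8 groups of 2 libraries. Circles are regions on the strand of the gene, filled where both libraries had the peak and open where 1 had it, and crosses are regions on the opposite strand. In Chd1, Chd2, Chd6, Chd7, Chd8 and Chd9 a region in the last 10% of the body was present in all 16 libraries; blue is control and orange knockout.

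The strand of Chd4, Chd6, Chd8 and Chd9 came from RefSeq. For Chd1, Chd2, Chd3 and Chd7 it was set to whichever strand had more peak significance in sum, so for those 4 genes the share of peaks on the gene strand is set by that choice. Of the 1148 peaks, 99 were on the opposite strand (8.62%, against 9.86% of peaks in protein-coding genes). Of 120 regions on the gene strand, 29 lay in the last 10% of the body (24.2%, against 19.5% of 59778 such regions in the series) and 8 in the first 10% (6.67% against 14.4%). The table gives no exons, so positions are fractions of the whole body, introns included.

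Chd1 binds methylated histone H3 behind elongating polymerase and is known to keep the chromatin of embryonic stem cells open. Its body (chr17:15704967-15772612, taken as plus strand) held 10 regions, with 3 to 7 peaks per library. In mRNA the Mettl3 controls had 5 peaks each and the knockouts 6 each, and the Mettl14 controls had 4 and 5 and the knockouts 3 each. In caRNA the Mettl3 controls had 5 and 6 and the knockouts 7 each, and the Mettl14 controls had 5 and 4 and the knockouts 5 and 6. Counts were thus higher in the knockouts of the Mettl3 line in both RNA types and lower in mRNA of the Mettl14 knockouts. The region found with the highest fold enrichment, the authors' ratio of immunoprecipitation to background, lay near the 3′ end (chr17:15769866-15770830, 96.4% of the body). Its fold was 3.51 to 6.94 in mRNA of both lines and 3.64 to 6.81 in caRNA of the Mettl3 line, but 12.3 to 16.6 in the 4 caRNA libraries of the Mettl14 line. The other region present in every list lay at 38.3% of the body, with folds of 2.86 to 7.58. Only caRNA of the Mettl3 knockouts held the region at chr17:15705008-15705297, in the first 0.392% of the body, with folds of 3.55 and 3.06. That region also overlaps the annotated transcript 5830433I10Rik. At 70.0% of the body, chr17:15752242-15752421 was found in both caRNA libraries of the Mettl3 knockouts, with folds of 3.23 and 11.3, and in neither of the controls, while in mRNA of the same line all 4 libraries had a region there.

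Chd2, which is known for depositing a histone H3 variant at active genes, had 3 to 17 peaks per library. Its body (chr7:73426652-73541746, taken as minus strand) held 21 regions. mRNA of the Mettl3 line gave 9 peaks in each control and 8 in each knockout, whereas the Mettl14 line gave 3 in each control and 6 in each knockout. The caRNA counts were 9 and 7 in Mettl3 controls, 17 and 14 in Mettl3 knockouts, 7 and 9 in Mettl14 controls and 10 and 13 in Mettl14 knockouts. The mean was higher in knockouts in 3 of the 4 comparisons and lower in mRNA of the Mettl3 line. The strongest region (chr7:73428433-73430137, 97.7% of the body) was in all 16 lists, with folds of 6.45 to 10.8 in mRNA, 7.70 to 9.79 in caRNA of the Mettl3 line and 13.7 to 22.8 in caRNA of the Mettl14 line. In mRNA of the Mettl14 line it was the only region of Chd2 found in all 4 libraries. Here 5 regions were gained, that is, present in both knockouts and neither control, and 2 were lost, the reverse. A region found in all 4 libraries of a comparison is called retained. The gained regions on the gene strand included chr7:73507862-73508026 with folds of 6.33 and 4.51 and chr7:73505089-73505245 with 2.60 and 2.33. These and 2 more, at 78.1% and 80.3% of the body, were retained in mRNA of the Mettl3 line, so the Mettl14 controls were the group that lacked them. The mRNA lists of these controls were also the shortest. The lost regions were chr7:73502036-73502217, with control folds of 2.34 and 2.41, and chr7:73469691-73469850, with 4.54 and 4.89. In caRNA of the Mettl3 line 4 regions were gained, of which chr7:73503443-73503641 had folds of 4.78 and 4.61. A peak at this place was lost in mRNA of the same line, where the controls had folds of 5.81 and 5.43. The most upstream region (chr7:73541384-73541742) was found in 1 caRNA library of the Mettl3 knockout and also lies in the body of the noncoding RNA gene Chaserr.

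**Figure D2:**
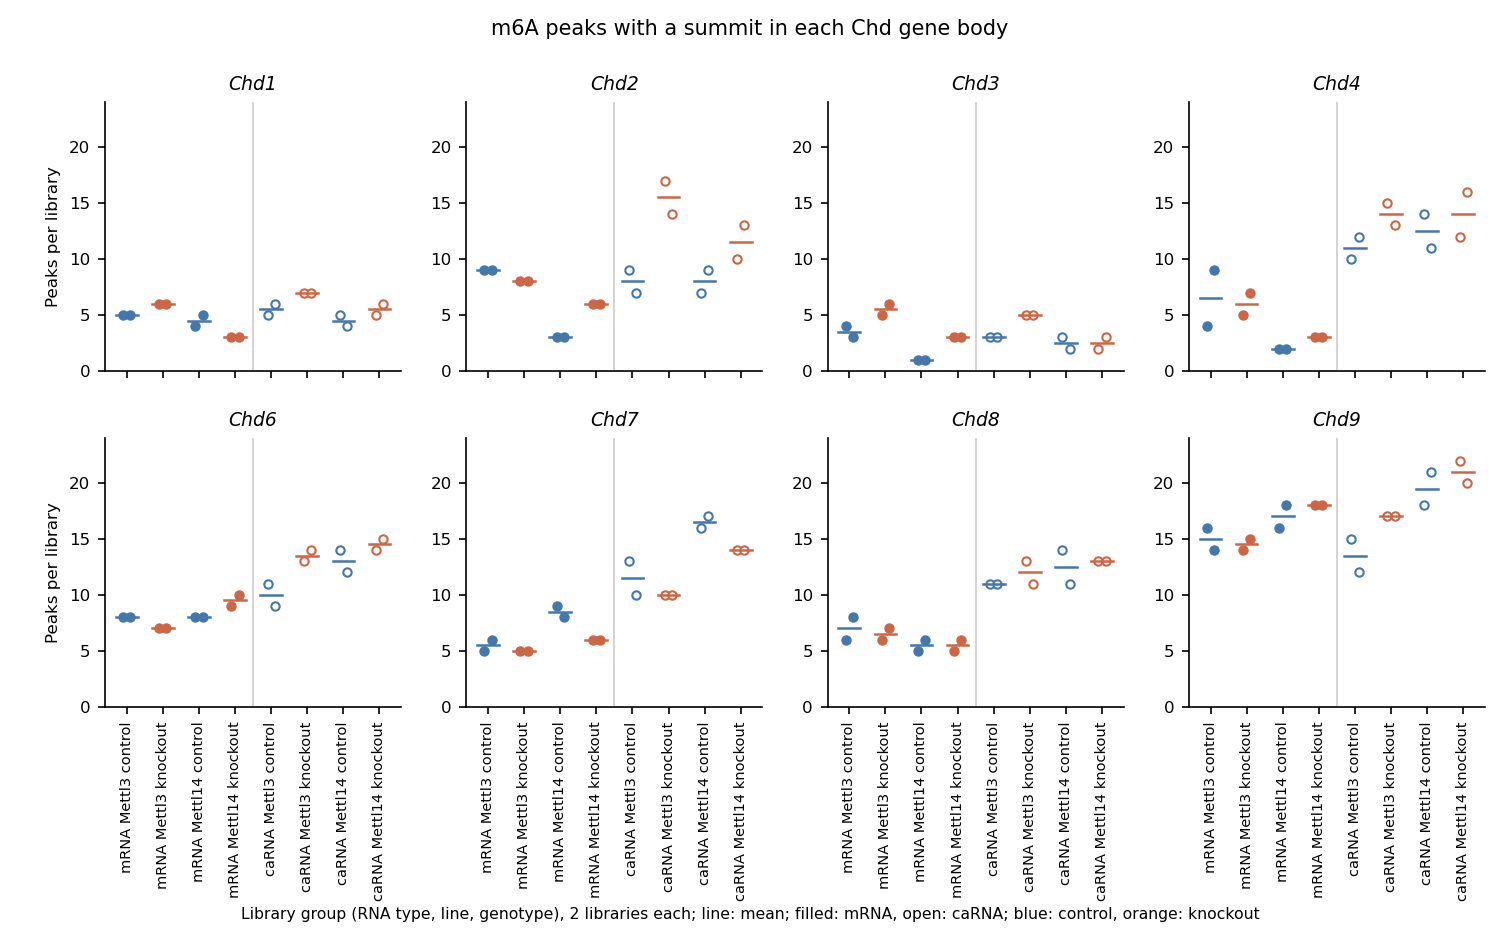
Number of m6A peaks with a summit in each CHD gene body, for every library, by RNA type, line and genotype; points are libraries and lines are the means of 2. Chd4 had 10 to 16 peaks per caRNA library and 2 to 9 per mRNA library, and Chd2 reached 17 peaks in caRNA of the Mettl3 knockout against 3 in mRNA of the Mettl14 controls.

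Chd3, a motor of NuRD, had the fewest regions, 8 in a body of 26.2 kb (chr11:69343273-69369499, taken as minus strand), all on 1 strand. Peaks in mRNA were 4 and 3 in Mettl3 controls, 5 and 6 in Mettl3 knockouts, 1 in each Mettl14 control and 3 in each Mettl14 knockout. Counts in caRNA were 3 in each Mettl3 control, 5 in each Mettl3 knockout, 3 and 2 in Mettl14 controls and 2 and 3 in Mettl14 knockouts. Counts were higher in the knockouts in 3 comparisons and equal in mean in caRNA of the Mettl14 line. Its strongest region lay at 20.4% of the body, not at the 3′ end (chr11:69364005-69364282). Folds there were 7.17 to 10.8 in mRNA of the Mettl3 line and 3.36 to 10.6 in mRNA of the Mettl14 line. In caRNA they were 10.3 and 15.1 in Mettl3 controls, 18.4 and 23.9 in Mettl3 knockouts, 9.76 and 5.58 in Mettl14 controls and 11.6 and 13.4 in Mettl14 knockouts. A neighbouring region (chr11:69364719-69364922, 17.9% of the body) was gained in mRNA of the Mettl14 line with folds of 10.7 and 13, the highest among the regions of CHD genes gained there on the strand of their gene. In the other 3 comparisons it was retained. The region near 30.4% of the body was found in 4 lists, all of knockouts of the Mettl3 line: folds were 5.98 and 4.24 in mRNA and 5.01 and 2.32 in caRNA.

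Chd4, the main NuRD motor of embryonic stem cells and also part of the ChAHP complex with ADNP and HP1 proteins, had the largest difference in number of peaks between RNA types among the members, though not per 10000 peaks of the list. Its body (chr6:125095980-125130591, plus strand) held 19 regions, 6 of them on the opposite strand. Peaks in mRNA numbered 4 and 9 in Mettl3 controls, 5 and 7 in Mettl3 knockouts, 2 in each Mettl14 control and 3 in each Mettl14 knockout. The caRNA libraries had 10 and 12 in Mettl3 controls, 15 and 13 in Mettl3 knockouts, 14 and 11 in Mettl14 controls and 12 and 16 in Mettl14 knockouts. Ranges were thus 10 to 16 peaks per caRNA library and 2 to 9 per mRNA library. On the strand of the gene, the highest fold was 1.70 to 3.93 per mRNA list, at the 34.9th percentile of the list or lower, and 4.64 to 19.4 per caRNA list, at the 43.9th to the 99.7th percentile. On the opposite strand, its peaks in mRNA had folds of 5.2 to 8.60. The 5′ region chr6:125097004-125097251, which also overlaps the microRNA gene Mir7045, had a peak in 7 of 8 caRNA lists and in 0 of 8 mRNA lists, with folds of 4.48 to 19.4. Another, chr6:125101137-125102508 at 17.0% of the body, had a peak in all 8 caRNA lists and in no mRNA list. Its folds were 4.83 and 5.28 in Mettl3 controls, 6.35 and 7.62 in Mettl3 knockouts, 4.58 and 4.64 in Mettl14 controls and 6.57 and 5.70 in Mettl14 knockouts. The 3′ region chr6:125129344-125130547 was present in 15 lists, all but 1 mRNA library of the Mettl3 knockout, with folds of 1.70 to 3.79. Close to the 5′ end, on the opposite strand, chr6:125096188-125096370 had a peak in 6 knockout lists and 1 control list. It was gained in mRNA of the Mettl3 line, with folds of 6.44 and 8.60, and in caRNA of the Mettl14 line, with 4.70 and 4.34. The caRNA libraries of Mettl3 knockouts had folds of 6.96 and 6.85 there, and 1 of their controls had 6.19.

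**Figure D3:**
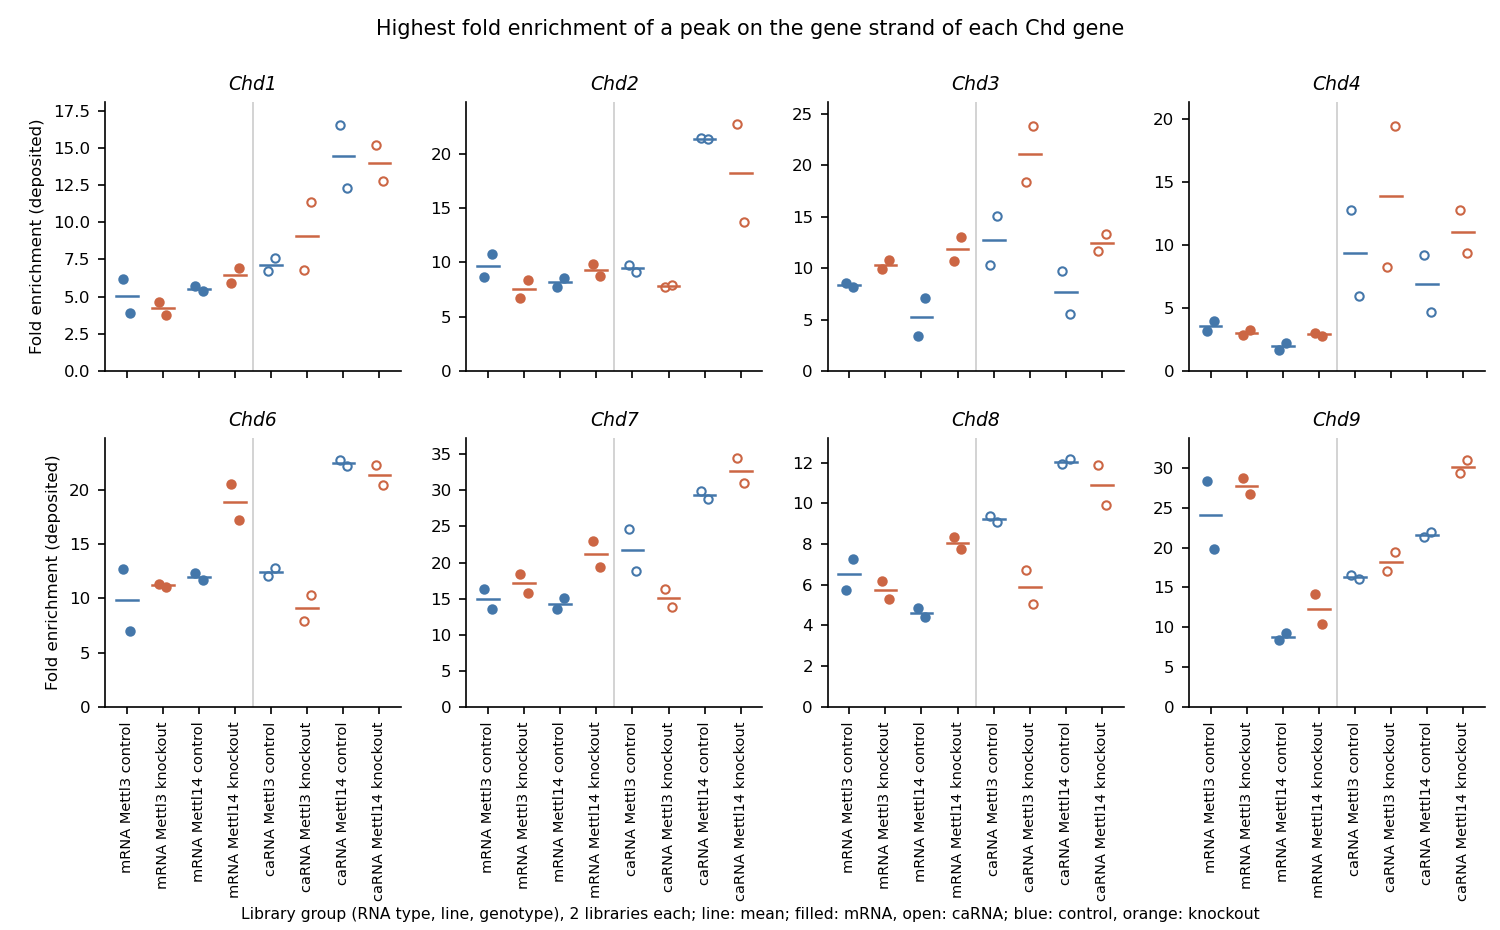
Highest fold enrichment of a peak on the strand of each CHD gene, as deposited, for every library; points are libraries and lines are the means of 2. On that strand Chd4 reached 3.93 in mRNA and 19.4 in caRNA, whereas Chd7 was between 13.5 and 34.4 throughout. Folds of different lists are shown side by side without a test.

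Chd6 is the least described of the members in stem cells and is known to be recruited to oxidative DNA damage. Its body (chr2:160946978-161109086, minus strand) held 19 regions, 5 of them in all 16 lists. In mRNA the Mettl3 controls had 8 peaks each and the knockouts 7 each, and the Mettl14 controls had 8 each and the knockouts 9 and 10. In caRNA the Mettl3 controls had 11 and 9 and the knockouts 13 and 14, and the Mettl14 controls had 14 and 12 and the knockouts 14 and 15. Of its 16 regions on the gene strand, 7 lay in the last 10% of the body. The strongest were chr2:160948946-160950304, at 98.2% of the body with folds of 6.95 to 22.8, and chr2:160965038-160966836, at 87.9% with folds of 4.50 to 22. Under the former, chr2:160949394-160950077 on the opposite strand was also in all 16 lists, with folds of 4.49 to 11.5, the only region of the family on the opposite strand to be so. A further region on that strand, chr2:161052441-161052836, was found in 12 lists and lay opposite a region present in all. It was lost in mRNA of the Mettl3 line (control folds 5.53 and 5.2), gained in mRNA of the Mettl14 line (knockout folds 6.99 and 5.90) and retained in caRNA of both lines.

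Chd7, which binds enhancers and whose human counterpart is mutated in CHARGE syndrome, held the strongest region of the family. Its body (chr4:8690402-8868449, taken as plus strand) held 20 regions. In mRNA the Mettl3 controls had 5 and 6 peaks and the knockouts 5 each, and the Mettl14 controls had 9 and 8 and the knockouts 6 each. In caRNA the Mettl3 controls had 13 and 10 and the knockouts 10 each, and the Mettl14 controls had 16 and 17 and the knockouts 14 each. The mean was lower in knockouts in each of the 4 comparisons. Chd7 was the member with no gained region in any comparison, and 6 losses were counted over the regions merged within a comparison, 2 each in mRNA of the Mettl14 line, caRNA of the Mettl3 line and caRNA of the Mettl14 line. Of these, chr4:8854381-8854625 in caRNA of the Mettl3 line lies within chr4:8854083-8855491, which was in all 16 lists once all lists were merged, so 5 lost regions are left in that merge. The lost regions had control folds of 1.95 to 5.24, the strongest being chr4:8832405-8832599 in mRNA of the Mettl14 line, with 5.15 and 5.24. Of the caRNA losses in the Mettl14 line, chr4:8690488-8690764 lay in the first 0.185% of the body, with control folds of 4.2 and 3.26. The strongest region, chr4:8865643-8866881 at 98.9% of the body, had folds of 16.3 and 13.5 in mRNA of Mettl3 controls and 18.4 and 15.8 in their knockouts. The Mettl14 controls had folds of 13.6 and 15.0 in mRNA, and their knockouts had 23.0 and 19.4. In caRNA they were 24.6 and 18.8 in Mettl3 controls, 16.4 and 13.8 in Mettl3 knockouts, 29.9 and 28.9 in Mettl14 controls and 34.4 and 31.1 in Mettl14 knockouts. In every list this peak stood above the 97th percentile of fold, at 97.8 or higher. The other 4 regions in all 16 lists lay at 35.1%, 53.5%, 62.3% and 92.6% of the body, with folds of 4.66 to 19.5. A region at 47.5%, chr4:8774861-8775180, had a peak in all 8 caRNA lists and no mRNA list, with folds of 4.09 to 9.65.

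Chd8, which is known to bind β-catenin and to hold back its target genes, had 15 regions in its body (chr14:52198151-52258042, minus strand). In mRNA the Mettl3 controls had 6 and 8 peaks and the knockouts 6 and 7, and the Mettl14 controls had 5 and 6 and the knockouts 5 and 6. In caRNA the Mettl3 controls had 11 each and the knockouts 13 and 11, and the Mettl14 controls had 14 and 11 and the knockouts 13 each. Ranges were 5 to 8 per mRNA library and 11 to 14 per caRNA library, and knockout and control counts overlapped in each comparison. The highest fold on the strand of the gene was 4.4 to 12.2. Its 4 regions in all 16 lists lay at 34.5%, 42.2%, 88.7% and 99.2% of the body, and the last, chr14:52198179-52199241, had folds of 4.24 to 11.7. Regions present in all 8 caRNA lists and no mRNA list were chr14:52203922-52204237 (90.2% of the body, folds of 1.83 to 3.55) and chr14:52202181-52202712 (93.0%, folds of 2.45 to 4.21). Between them, the region that spans chr14:52202974-52203353 was gained in caRNA of both lines, with folds of 3.29 and 3.68 in Mettl3 knockouts and 1.79 and 2.00 in Mettl14 knockouts. The only loss in Chd8 was chr14:52204509-52204676 in mRNA of the Mettl3 line, with control folds of 4.34 and 4.26. It lies within chr14:52204499-52205543, which was in all 16 lists once all lists were merged and so counted as retained there. A region on the opposite strand there, chr14:52204806-52205472, lies in the body of Gm26590 as well.

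Chd9 has been described in bone-forming progenitors and is the longest member at 226.2 kb (chr8:90828302-91054516, plus strand). It held the most regions, 30, and no other member had more peaks in any library. In mRNA the Mettl3 controls had 16 and 14 peaks and the knockouts 14 and 15, and the Mettl14 controls had 16 and 18 and the knockouts 18 each. In caRNA the Mettl3 controls had 15 and 12 and the knockouts 17 each, and the Mettl14 controls had 18 and 21 and the knockouts 22 and 20. Its strongest region by median fold, chr8:90860342-90861098, lay at 14.4% of the body. Folds there were 28.4 and 19.8 in mRNA of Mettl3 controls, 28.8 and 26.8 in their knockouts, 8.34 and 9.29 in mRNA of Mettl14 controls and 14.2 and 10.4 in their knockouts. The caRNA folds were 16.5 and 16 in Mettl3 controls, 17.0 and 19.4 in Mettl3 knockouts, 21.3 and 22 in Mettl14 controls and 29.3 and 31.0 in Mettl14 knockouts. Its 8 regions in all 16 lists were spread from 12.3% to 98.6% of the body, and the weakest of them, chr8:90956307-90956666, had folds of 2.12 to 3.80.

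How many regions of the series were gained in mRNA of both lines was not counted. In the family the only one was the region at the start of Chd9, chr8:90828368-90828806. It had a peak in all 4 mRNA libraries of knockouts and in 0 of 4 of controls, with folds of 5.55 and 4.17 in Mettl3 knockouts and 3.16 and 8.69 in Mettl14 knockouts. In caRNA all 8 lists had it, with folds of 4.65 and 5.2 in Mettl3 controls, 6.24 and 6.03 in Mettl3 knockouts, 6.94 and 6.50 in Mettl14 controls and 4.88 and 4.44 in Mettl14 knockouts. The mRNA peaks spanned chr8:90828374-90828531 and chr8:90828371-90828533, merged by line, and the caRNA peaks reached further downstream. The exact two-sided permutation test of its presence over genotypes gave p = 0.0556 (adjusted p = 1 over all regions). RefSeq start windows, from 250 bases before to 50 after an annotated start, were given for 4 of the 8 members in the table used. Both windows of Chd9 overlapped a peak region on the gene strand. The peak regions covered 222 and 86 bases upstream of these starts. The 30 bases of the former with the most GAC and the whole of the latter are shown because a peak of the family lies on them, with AAC and GAC, the core of the m6A consensus, in capitals (gene strand, 5′ to 3′; RefSeq, GRCm38.p6).

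Chd9 chr8:90828585-90828614, plus strand: cccaGACctGACagctcctccacgcctcca

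Chd9 chr8:90932163-90932248, plus strand: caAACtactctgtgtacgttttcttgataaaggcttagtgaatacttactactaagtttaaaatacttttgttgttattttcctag

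A peak reached into the stretch of 222 bases, chr8:90828585-90828806, in all 8 caRNA lists and in 0 of 8 mRNA lists. This stretch was 65.8% G or C and held GAC 2 times and AAC 1 time. Of 32851 RefSeq windows, 92.3% held GAC and 88.8% held AAC on the gene strand in the same number of bases before the start. The stretch of 86 bases, with 29.1% G or C, belongs to chr8:90932163-90933856, a region in all 16 lists with folds of 5.19 to 17.4. A peak reached into this stretch in all 8 caRNA lists and in 2 of 8 mRNA lists, and it held AAC 1 time and GAC 0 times, against 57.2% and 64.3% of windows with a match over that length. The fuller motif GGAC was in neither stretch on either strand, whereas 53.8% of windows held it on the gene strand in 222 bases and 26.1% in 86.

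**Figure D4:**
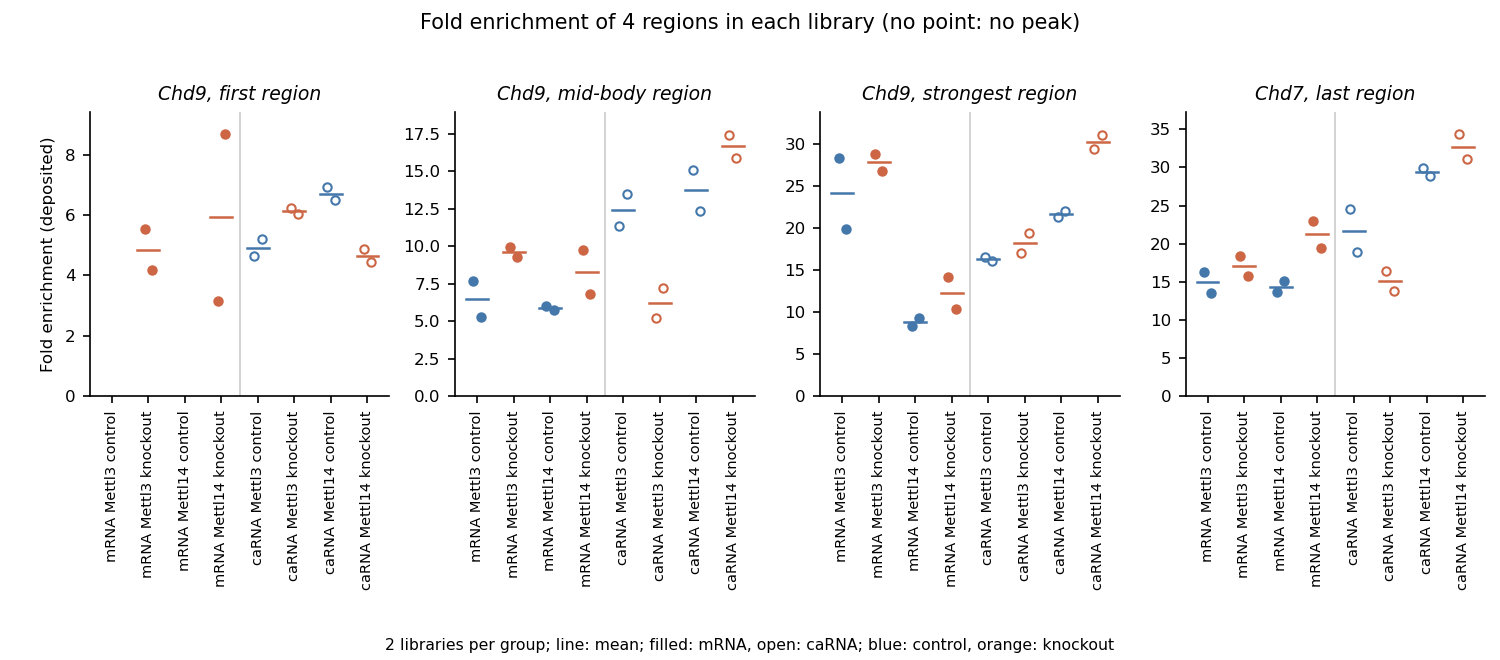
Deposited fold enrichment of 4 regions in every library: the start region of Chd9, its region at 46.0% of the body, its strongest region and the 3′ region of Chd7; points are libraries, lines are means, and no point means no peak. The start region of Chd9 has no point in the 4 mRNA control libraries and a point in the 4 mRNA knockout libraries, and the other 3 regions have points throughout.

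Knockout was compared with control in each line and RNA type to ask which marks depend on METTL3 or METTL14. Most CHD regions found in both controls were also found in both knockouts, as were most such regions of the series. In the Mettl3 line, CHD counts were 44 of 51 in mRNA (86.3%, against 80.3% in the series) and 59 of 64 in caRNA (92.2% against 73.6%). In the Mettl14 line they were 35 of 44 in mRNA (79.5% against 91.4%) and 65 of 76 in caRNA (85.5% against 72.4%). The share retained was above that of the series in 3 comparisons and below it in mRNA of the Mettl14 line. Losses were 4 of 51 in mRNA of the Mettl3 line (7.84%, against 10.2% of all control regions), 8 of 44 in mRNA of the Mettl14 line (18.2% against 6.33%), 3 of 64 in caRNA of the Mettl3 line (4.69% against 16.4%) and 6 of 76 in caRNA of the Mettl14 line (7.89% against 15.7%). The share of CHD regions lost was thus below the background in 3 comparisons and above it in mRNA of the Mettl14 line. Gains were 4 of 53 knockout regions (7.55% against 9.95%), 15 of 50 (30% against 25.6%), 14 of 81 (17.3% against 16.9%) and 8 of 84 (9.52% against 9.16%), in the same order. These shares were close to the background. No region was lost in both lines, and 3 were gained in caRNA of both: the Chd8 region named above, chr8:90849508-90849879 of Chd9 and chr8:91026535-91026861 of Chd9. In their weakest caRNA list these stood at the 0.465th, 10.8th and 0.978th percentile of fold, in that order. How many regions of the series were lost or gained in both lines was not counted. Within a comparison 2 libraries against 2 cannot give an exact permutation p below 0.333, so no region was tested there.

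By percentile of fold within each list, the median peak of retained CHD regions stood at 54.5 to 60.3 in the 4 comparisons. That of lost regions stood at 6.11 to 49.2 and that of gained regions at 15.0 to 48.7. By definition a retained region was found in all 4 lists of a comparison, and a lost or gained region in only 2. These percentiles were not taken over all regions of the series, so the contrast is not shown to be particular to CHD genes. Opposite-strand regions made up 7 of 21 lost regions (33.3%), 9 of 41 gained (22%) and 10 of 203 retained (4.93%). The strand taken for 4 genes came from the same peaks, and no test was made of this. The same shares were not taken over all regions of the series, so they are not shown to be particular to CHD genes. The strongest lost region, chr8:91034092-91034328 in Chd9, was on the opposite strand, with control folds of 9.30 and 8.78 in mRNA of the Mettl14 line. Also on that strand, 2 regions near the 3′ end of Chd9 (chr8:91051301-91051537 and chr8:91051723-91052007) were gained in the same comparison, with folds of 12.2 and 10.4 and of 7.64 and 8.87. On the strand of the gene alone, gains in mRNA of the Mettl14 line came to 9 and losses in caRNA of the Mettl14 line to 2.

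Counts of lost and gained regions were also taken without single libraries. That loosens the rule for a lost or gained region, so a count could rise whichever library was left out. With 1 library set aside and presence read from its partner, losses in mRNA of the Mettl3 line were 9 without control 1 and 8 without control 2, and gains were 7 without control 2 and 7 without knockout 1. In caRNA of the Mettl3 line losses were 6 without control 1 and 5 without knockout 1, and gains were 22 without knockout 2. In caRNA of the Mettl14 line losses were 11 without control 2, and gains were 14 without control 1, 13 without control 2 and 15 without knockout 1.

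**Figure D5:**
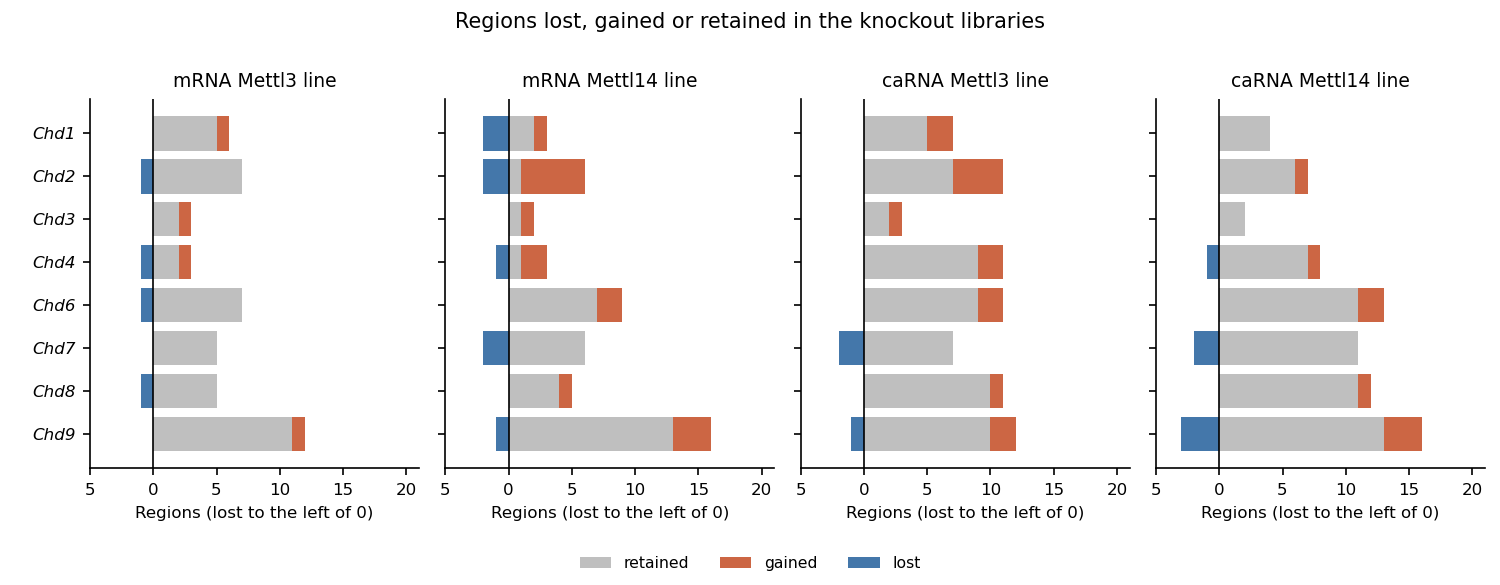
CHD regions lost (to the left of 0), retained and gained in each comparison of 2 knockout with 2 control libraries, by gene; the axis counts regions. Gains outnumber losses in mRNA of the Mettl14 line (15 against 8) and in caRNA of the Mettl3 line (14 against 3), and Chd7 has losses in 3 comparisons and gains in none. In mRNA of the Mettl14 line and caRNA of the Mettl3 line the control lists were shorter than the knockout lists. Gains also outnumber losses in caRNA of the Mettl14 line (8 against 6). There the control lists were longer, at 42514 and 41315 peaks against 38272 and 39385. The part of list length was not tested.

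Over the 4 comparisons together, an exact two-sided permutation test of genotype labels within comparisons could reach p = 0.00154. Adjusted over 17094 genes with the Benjamini-Hochberg method, no gene passed, and 942 (5.51%) had an unadjusted p below 0.05, as 0 genes passed with bases covered (2725 unadjusted). Of the members, 3 were among the 942. Chd3 had 1.5 more peaks in knockouts (4 ± 1.41 against 2.50 ± 1.07, mean and SD of 8 libraries each; exact permutation p = 0.00926, adjusted p = 0.624). Chd2 had 3.25 more (10.3 ± 4.03 against 7 ± 2.62; exact permutation p = 0.0170, adjusted p = 0.624) and was higher in 3 of 4 comparisons. The difference was -1.75 for Chd7 (8.75 ± 3.81 against 10.5 ± 4.44; exact permutation p = 0.0139, adjusted p = 0.624) and was lower in 4 of 4. The other 5 members had p between 0.0710 and 0.810. Of all 80081 regions none passed for presence by genotype, and 294 (0.367%) had an unadjusted p below 0.05. The 1 CHD region among these was the opposite-strand region at the start of Chd4 (1 control and 6 knockout lists, exact permutation p = 0.0278, adjusted p = 1).

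Chromatin-associated RNA was compared with mRNA to ask how the marks of nascent and retained RNA differ from those of mature transcripts. Chd4, Chd7, Chd8, Chd6 and Chd2 had more peaks in caRNA, and Chd1, Chd3 and Chd9 did not pass the test. Chd4 had 12.9 ± 2.03 peaks in caRNA and 4.38 ± 2.50 in mRNA (mean and SD, n = 8 each), a difference of 8.5, higher in 4 of 4 pairs of groups (exact permutation adjusted p = 0.00988). The difference was 6.75 for Chd7, 6 for Chd8 and 4.63 for Chd6, with the same adjusted p, which follows from the smallest p the permutations can give, 0.00154. It was 4.25 for Chd2, higher in 3 of 4 pairs (exact permutation adjusted p = 0.0309). For Chd1 it was 1 (adjusted p = 0.110 by the exact permutation test), for Chd9 1.63 (0.185) and for Chd3 0 (1). The 5 of 8 members stand against a background in which 5250 of 17094 genes (30.7%) were higher in caRNA and 369 (2.16%) lower. That background includes genes with a peak in as few as 1 list, whereas all members had peaks in all 16.

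The direction for Chd1, Chd2, Chd6 and Chd9 depended on the scale, as caRNA lists held more peaks. As peaks per 10000 of the list, a setting chosen after the data were seen, 2623 genes were higher in caRNA (15.3%) and 3539 lower (20.7%). On that scale Chd9, Chd1, Chd6 and Chd3 were lower in caRNA. The difference, caRNA minus mRNA, was -3.32 for Chd9 (exact permutation adjusted p = 0.00838), -0.816 for Chd1 (0.0271), -0.725 for Chd6 (0.0397) and -0.672 for Chd3 (0.0225), and it was -0.343 for Chd2 (0.423). Chd4, at 1.16, did not pass (exact permutation adjusted p = 0.0541), nor did Chd7 at 0.150 (0.708) or Chd8 at 0.0904 (0.777). With the 10000 strongest peaks of each list, 194 genes were higher in caRNA (1.74%) and 289 lower (2.59%), and no member passed; Chd4 was higher by 2 (exact permutation adjusted p = 0.0536). Bases covered passed for Chd1 (285 more in caRNA, exact permutation adjusted p = 0.00920) and Chd9 (1492 more, 0.0120), against 45.5% of genes higher and 4.18% lower. Single libraries also moved the calls at the threshold. Chd2 had an exact permutation adjusted p of 0.0537 without control 2 and of 0.0536 without knockout 2 of the caRNA libraries of the Mettl14 line. Chd1 passed without control 2 of the Mettl14 line in mRNA (0.0433) or in caRNA (0.0419), and Chd9 without control 2 of the Mettl3 line in caRNA (0.0405) or on the strand of the gene alone (0.0470).

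Region by region, 4 of the 142 CHD regions passed for presence in caRNA, against 2579 of 80081 in the series (3.22%), and none for presence in mRNA, against 93 (0.116%). They are the regions of Chd4 (chr6:125101137-125102508), Chd7 (chr4:8774861-8775180) and Chd8 (chr14:52203922-52204237 and chr14:52202181-52202712) described above, each with 8 caRNA lists and 0 mRNA lists (exact permutation adjusted p = 0.0463, at the smallest p possible). With the 10000 strongest peaks of each list no region of the series passed. Of the 11 regions found in mRNA alone, 8 were seen in 2 lists, 1 in 3 and 2 in 5, the last both in Chd9 (chr8:90890985-90891776, and chr8:90907790-90907945 on the opposite strand).

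The lines were also compared. Chd9 had 18.9 ± 1.96 peaks in the Mettl14 line and 15.0 ± 1.69 in the Mettl3 line (mean and SD, n = 8 each), Chd7 had 11.3 ± 4.50 and 8 ± 3.12, and both were higher in the Mettl14 line in 4 of 4 pairs of groups. Chd3 had 2.25 ± 0.886 in the Mettl14 line and 4.25 ± 1.16 in the Mettl3 line and Chd1 had 4.38 ± 1.06 and 5.88 ± 0.835, lower in 4 of 4. No gene of 17094 passed the adjustment, while 3287 (19.2%) had an unadjusted p below 0.05. The exact permutation adjusted p was 0.0648 for Chd7, 0.0799 for Chd9, 0.0799 for Chd3 and 0.100 for Chd1. As peaks per 10000 of the list, 386 genes passed as higher in the Mettl14 line (2.26%) and 723 as lower (4.23%). Chd7 (1.30 more), Chd9 (1.84 more) and Chd6 (0.823 more) passed as higher and Chd3 (a difference of -0.693) as lower, each with an exact permutation adjusted p of 0.0343. The same 4 genes passed with bases covered (exact permutation adjusted p of 0.0185 for Chd6 and Chd7 and 0.0288 for Chd3 and Chd9), against 11% of genes higher and 8.45% lower. Of the 142 regions, 31 were seen in the Mettl14 line alone, 9 of them in Chd9 and 8 in Chd7, and 17 in the Mettl3 line alone, 6 of them in Chd2. Of 15 regions of CHD genes gained in mRNA of the Mettl14 line, counted over the regions merged from all lists, 9 were retained in mRNA of the Mettl3 line. Over the whole series, libraries of different lines shared 39.8% to 59.6% of regions in mRNA and 35.3% to 54.7% in caRNA. Regions of 1 line alone were not counted over the series, nor were gained regions retained in the other line. These counts are thus not shown to be particular to CHD genes.

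Genes related to the family were read the same way. Chd5, the third NuRD motor, and Chd1l, a remodeller recruited by poly(ADP-ribose), were both higher in caRNA, with means of 6.50 against 2.88 peaks and 1.25 against 0.250 (exact permutation adjusted p = 0.0251 and 0.0192). For 15 other NuRD and ChAHP subunits the median difference was 0.625 peaks, against 0.5 over all genes tested. Of these subunits 6 were higher in caRNA and 0 lower, against 30.7% and 2.16% of all 17094 genes. Among them were the deacetylase gene Hdac1 (8.63 peaks in caRNA against 2.25 in mRNA, adjusted p = 0.00988 by the exact permutation test), Mbd3, a core subunit (3.88 against 1.25, adjusted p = 0.00988), and Cbx1, an HP1 protein (3.5 against 1.5, 0.0170). Gatad2a, a scaffold subunit, had 3.00 against 2.75 (0.828). Hdac1 gained regions in all 4 comparisons, 1 and 2 in mRNA and 2 and 1 in caRNA of the Mettl3 and the Mettl14 line. Mbd2 gained 1 region in each of 3 comparisons, all but mRNA of the Mettl3 line. Mta3 gained 1 region in caRNA of each line, Rbbp7 gained 1 in caRNA of the Mettl14 line and Cdk2ap1 1 in mRNA of the Mettl14 line. Cbx1 and Rbbp4, a histone chaperone, gained and lost regions in different comparisons or places, Gatad2a lost 1 in caRNA of the Mettl14 line and gained 1 in that of the Mettl3 line, and Cbx3, Gatad2b and Mta2 each lost 1 in caRNA.

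Over all 17094 genes, 30.7% were higher in caRNA and 2.16% lower. In the other remodeller lists, 5 of 11 ISWI complex genes, 13 of 18 genes of the INO80, SRCAP and TIP60 remodellers and 10 of 15 other Snf2-like ATPase genes were higher in caRNA, and Ercc6l of the last list, named after its values were seen, was lower (2.13 against 3.38, adjusted p = 0.0309 by the exact permutation test). Among them, Baz2b, a partner of ISWI, had 21.9 peaks in caRNA against 13 in mRNA and Rsf1 12.5 against 6.00 (exact permutation adjusted p = 0.00988 each), while Bptf, the NURF subunit, had 15.8 against 11.5 (0.115) and Baz1b 6.75 against 5.38 (0.0545). Of the INO80 and related genes, the ATPase gene Ep400 had 9.38 against 3.63 (exact permutation adjusted p = 0.0170), Srcap 8.50 against 5.13 (0.0192), and Ino80d and the acetyltransferase gene Kat5 each 6.88 against 2.88 (0.00988). Atrx, which acts at repeats and telomeres, had 13.1 against 9.88 (exact permutation adjusted p = 0.0469), Zranb3 8.25 against 2.88, Shprh 6.00 against 1.88 and Ercc6 6.63 against 3.00 (0.00988 each). No gene of these lists passed the genotype test.

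For each member, the protein-coding gene whose log2(peaks + 1) followed it most closely over the 16 lists was found among 10094 genes, as a description with no test. The points share libraries and list lengths. The Pearson r was 0.975 for Chd8 and Dennd2a, 0.972 for Chd7 and Scfd2, 0.971 for Chd4 and Stip1, 0.950 for Chd6 and Gpa33, 0.945 for Chd2 and Tbl3, 0.944 for Chd3 and Zrsr2, 0.918 for Chd1 and Ik, and 0.849 for Chd9 and Epha7.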

How the data were processed

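Each of the 16 immunoprecipitation libraries had 1 deposited peak list. Per the labels' protocols, RNA was immunoprecipitated with an m6A kit and a spike-in control and made into stranded libraries. The submitters' processing notes name CASAVA, Trimmomatic 0.38, HISAT2 2.1.0, SAMtools 1.9 and mm10; the peak caller is not given in the sources used here. The deposited values of a peak were a fold (a ratio to background), −log10 of a p-value and of a q-value, and a display score, which was not used. Folds describe and rank peaks within a list. No read depth could be recovered.

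Spike-in peaks were dropped. A summit was placed in every gene body of the RefSeq table (GRCm38.p6, which is mm10) that holds it. Peaks overlapping by at least 1 bp on a strand were merged into regions, over the 4 lists of a comparison for lost and gained regions and over all 16 lists otherwise. Peaks per gene (17094 genes with a peak) and presence of regions (80081) were tested with an exact two-sided permutation test over all 1296 arrangements of labels within 4 strata, with Benjamini-Hochberg adjustment over all features and a threshold of 0.05. The test was checked on the real counts shuffled within strata, with peaks added to a set of genes. Its power at the sizes seen in the members was not checked. Python 3.11.15, numpy 2.4.6, pandas 2.3.3 and matplotlib 3.10.9 were used.

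The members and gene lists were chosen with earlier results of these data known. Named were all members, at most 4 genes per other list (those with most regions in controls), every NuRD or ChAHP gene with a lost or gained region, and the gene most like each member. Alternatives were the 10000 strongest peaks, a stricter q-value, the gene strand alone, a summit distance of 100 nt in place of overlap, a minimum number of lists, a replicate block and leaving out each library. Bases covered and peaks per 10000 of a list were added after seeing the data.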

Additional observations from a re-analysis of the deposited data

Results flagged for a closer look

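In mRNA, the peak counts of 3 members moved in opposite directions in the lines. Every knockout library was on 1 side of both controls in a line and on the other side in the other line. The differences between lines were not tested. The knockout minus control mean of peaks was 1 for Chd1 in the Mettl3 line and -1.5 in the Mettl14 line. It was -1 for Chd2 in the Mettl3 line and 3 in the Mettl14 line, and -1 for Chd6 in the Mettl3 line and 1.5 in the Mettl14 line. The same opposite pattern in mRNA was seen in 354 of 17094 genes with a peak (2.07%) and in 219 of 5978 genes with a peak in all 16 lists (3.66%), as all members had. The members' values are counts, not scaled to list length. In mRNA of the Mettl14 line the lists held 16537 and 17738 peaks in controls and 23380 and 22654 in knockouts. Relative to list length, Chd6 was lower in knockouts of both lines, while Chd1 and Chd2 kept their opposite directions. The part of list length was not tested.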

How the results depend on the processing

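Of the counts and members' differences recomputed under alternatives, 4 differences turned, all on peaks per 10000 of the list for caRNA against mRNA: Chd1 at -0.82, Chd2 at -0.34, Chd6 at -0.73 and Chd9 at -3.32. With the 10000 strongest peaks of each list, CHD gains were 2 in mRNA of the Mettl3 line, 6 in mRNA of the Mettl14 line, 9 in caRNA of the Mettl3 line and 4 in caRNA of the Mettl14 line, and losses were 3 in mRNA of the Mettl14 line and 1 each in caRNA of the Mettl3 and the Mettl14 line. On the gene strand alone, gains in mRNA of the Mettl14 line were 9 and losses in caRNA of the Mettl14 line 2. With −log10 q of at least 5, losses in caRNA of the Mettl3 line were 1. Without each library in turn, losses and gains ranged over 5 to 9 and 5 to 7 in mRNA of the Mettl3 line, 8 to 11 and 15 to 18 in mRNA of the Mettl14 line, 3 to 6 and 16 to 22 in caRNA of the Mettl3 line and 7 to 11 and 11 to 15 in caRNA of the Mettl14 line. Leaving out a library loosens the rule for these counts, so a rise does not mark that library. Genes that differed between RNA types were 8492 with bases covered, 483 with the 10000 strongest peaks and 5380 to 5719 without each library, and regions were 5239 among those in at least 4 lists, 0 with the 10000 strongest peaks and 2725 to 2990 without each library. Genes that differed between lines were 3323 with bases covered and 1109 per 10000 of the list, and 0 without each library, as for genotype. The cause of these moves was not tested.

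Replicate numbers did not pair the libraries: the correlation of deviations of same-numbered libraries was 0.0266 and -0.0251 in mRNA and -0.0695 and -0.0566 in caRNA of the Mettl3 and the Mettl14 line. With the replicate number as a block (256 arrangements, smallest p 0.00781), 2891 genes and 0 regions differed between RNA types, Chd2 had an exact permutation adjusted p of 0.0927, and 0 genes passed for genotype (462 unadjusted) or line (2139 unadjusted). Lost and gained regions come from no test, so a block does not apply to them. Read depth is unknown, so a missing peak does not show that the mark is absent.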
